A study of Mus musculus with 6 samples.

Results

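A set of 10 marker genes of the gastric gland, Gkn1, Gkn2, Tff1, Muc5ac, Tff2, Muc6, Atp4a, Atp4b, Pgc and Ghrl, were followed across 6 one-colour Affymetrix arrays of samples labelled as mouse aorta. The genes were chosen by name, with earlier results of these arrays known, because stomach genes had stood out on 1 array, so their values on the arrays are given as a description and are not tested. Each of the 10 genes was measured by 1 probe set with a single gene symbol, and they are 10 of 19938 genes on the array with such a probe set. The knockout group held 3 samples of RNA labelled as aorta of Trail knockout mice, a line sourced from Amgen and labelled with the strain C57Bl6/J, and the control group held 3 such samples of wildtype C57Bl6/J mice. All mice were 6 weeks old, and the labels name no agent. The comparison asked what the loss of Trail, a death ligand encoded by Tnfsf10, does to the vessel. The labels do not say whether the samples of a group were single animals or pools.

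The glands of the mammalian stomach are lined by a few secretory cell types. Pit cells cover the surface and secrete the gel-forming mucin Muc5ac, the trefoil peptide Tff1 and the gastrokines Gkn1 and Gkn2, while neck cells deeper in the gland make the mucin Muc6 and the trefoil peptide Tff2. Parietal cells pump acid with an ATPase built from the Atp4a and Atp4b subunits, chief cells release pepsinogens such as Pgc, and endocrine cells of the gland make ghrelin from Ghrl. These products are taken here as markers of the gastric lining, without a claim that they are confined to it. They are not known as products of the wall of the aorta.

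The arrays were compared as labelled, and several facts about them bear on all values below. Tnfsf10 gave log2 signals of 4.09 to 5.02 on the 3 knockout arrays, against 8.42, 4.90 and 4.85 on arrays labelled wild type 1, 2 and 3, so the deleted gene did not separate all wild-type arrays from the knockout ones. Where the deletion falls relative to the probe set is not known, and below "knockout 2" and the like stand for the array labelled so. The array labelled wild type 1 lay more than 2-fold below all others for 10 of 10 skeletal muscle and 19 of 19 squamous epithelium genes, and the array labelled knockout 1 lay more than 2-fold above all others for 8 of 15 lung and airway genes. The shares of all genes that met these rules were not computed. Vessel wall genes, among them the smooth muscle actin gene Acta2 and the endothelial gene Cdh5, were measured on every array. Their list median was 9.93 on wild type 1 and 8.56 to 8.90 on the other 5 arrays. Acta2 was level at 12.27 to 12.63, whereas Cdh5 gave 9.64 on wild type 1 and 7.63 to 8.49 elsewhere. The squamous epithelium list median was 5.31 on wild type 1 and 10.79 to 11.21 on the other 5 arrays. With 3 arrays a group, the precision of all values is low. No detection calls were used, so a low log2 signal is a low reading and not proof that a transcript was absent. In bulk RNA, fewer cells of a type and less RNA per cell cannot be told apart.

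All 10 genes had their highest signal on the array labelled knockout 2 and their next highest on the array labelled wild type 3. The median over the 10 genes was 12.27 on knockout 2, 5.47 on knockout 1 and 5.10 on knockout 3, against 6.71 on wild type 3, 5.15 on wild type 1 and 4.93 on wild type 2. Knockout 2 exceeded the next array by 2.96 to 5.80 on the log2 scale, which is 7.80-fold to 55.8-fold, with a median of 4.37. These are folds between deposited readings, and with 64 added on the linear scale the margins were 1.90 for Muc6 to 5.10 for Atp4a. Across all 19938 genes, 1.26% were more than 2-fold above each other array on knockout 2, and 1.80% had knockout 2 highest with wild type 3 next. Since the genes were picked for this pattern, the count of 10 of 10 is not evidence for it. On the remaining 4 arrays, knockout 1, knockout 3, wild type 1 and wild type 2, the signals of a gene lay within 0.33 to 0.80 of each other.

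**Figure D1:**
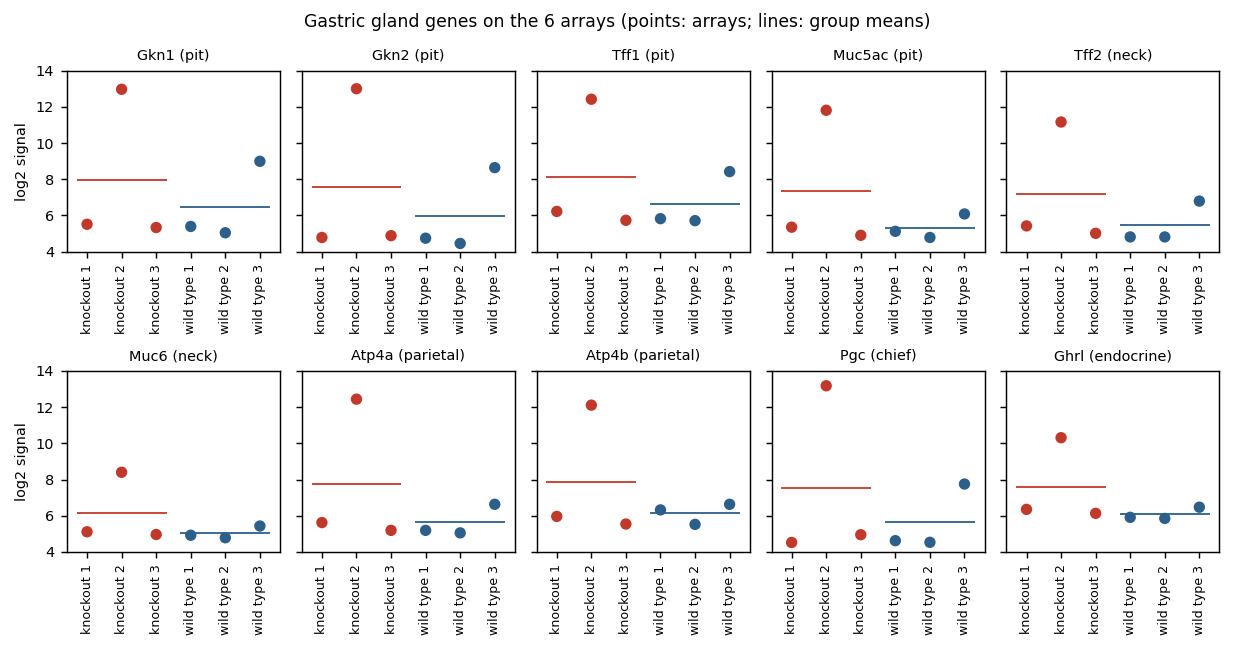
Log2 signal of the 10 gastric gland genes on the 6 arrays, with 1 panel per gene, knockout arrays in red, wild-type arrays in blue, points for arrays and lines for group means. The array labelled knockout 2 sits highest in every panel, between 8.40 and 13.18, and the array labelled wild type 3 is next, between 5.43 and 8.99.

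The pit cell genes were high on knockout 2 and, to differing degrees, above the remaining arrays on wild type 3. Gkn1, a secreted protein of surface mucous cells, gave log2 signals of 5.51, 12.97 and 5.33 on arrays labelled knockout 1, 2 and 3, against 5.39, 5.04 and 8.99 on those labelled wild type 1, 2 and 3. Gkn2, a related gastrokine of the same cells, gave 4.78, 13.00 and 4.88 on knockout 1 to 3, against 4.74, 4.45 and 8.64 on wild type 1 to 3. Both gastrokines were thus high on knockout 2, intermediate on wild type 3 and near the bottom of their range on the other 4 arrays, with wild type 2 lowest. Tff1, a trefoil peptide that protects the mucosa, gave 6.22, 12.42 and 5.73 on knockout 1 to 3, against 5.82, 5.71 and 8.42 on wild type 1 to 3. Muc5ac, the gel-forming surface mucin, gave 5.35, 11.81 and 4.90 on knockout 1 to 3, against 5.12, 4.78 and 6.08 on wild type 1 to 3. For Muc5ac the step between knockout 2 and wild type 3 was 5.73, and wild type 3 was only 0.72 above the highest of the other 4 arrays, where Gkn2 was 3.77 above.

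The neck cell genes had the same leading arrays. Tff2, the spasmolytic trefoil peptide, gave 5.42, 11.16 and 5.01 on knockout 1 to 3, against 4.81, 4.81 and 6.79 on wild type 1 to 3. Muc6, the gland mucin, gave 5.11, 8.40 and 4.96 on knockout 1 to 3, against 4.92, 4.78 and 5.43 on wild type 1 to 3. Muc6 had the smallest step of the 10 genes from knockout 2 to the next array, 2.96, and its wild-type 3 signal was 0.33 above that of knockout 1.

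The subunits of the acid pump were high on knockout 2 and far less so on wild type 3. Atp4a, the catalytic subunit, gave 5.62, 12.44 and 5.19 on knockout 1 to 3, against 5.19, 5.05 and 6.63 on wild type 1 to 3. Atp4b, the glycosylated partner subunit that carries the pump to the membrane, gave 5.96, 12.11 and 5.54 on knockout 1 to 3, against 6.32, 5.52 and 6.63 on wild type 1 to 3. The step from knockout 2 to wild type 3 was 5.80 for Atp4a and 5.48 for Atp4b, so the pair moved by about the same amount. Above the other 4 arrays, wild type 3 stood out by 1.01 for Atp4a and by 0.31 for Atp4b, which is less than the 0.80 by which those 4 arrays differed among themselves.

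Pgc, the pepsinogen C of chief cells, was high on knockout 2 and intermediate on wild type 3. It gave 4.52, 13.18 and 4.95 on knockout 1 to 3, against 4.62, 4.53 and 7.75 on wild type 1 to 3. Ghrl, which encodes the appetite hormone ghrelin, gave 6.35, 10.31 and 6.13 on knockout 1 to 3, against 5.91, 5.85 and 6.47 on wild type 1 to 3. Its wild-type 3 signal was only 0.12 above that of knockout 1, so on the arrays other than knockout 2 the ghrelin probe set did not set wild type 3 apart.

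The gland genes thus stood out on the array labelled wild type 3 to differing degrees. It was more than 2-fold above all of knockout 1, knockout 3, wild type 1 and wild type 2 for 6 of the 10, namely Gkn2, Gkn1, Pgc, Tff1, Tff2 and Atp4a, the last by 1.01. Among all 19938 genes, 17 (0.0853%) met this rule. Besides the 6, they were the pit list genes Mucl3, Anxa10, Ctse and Psca, the phospholipase gene Pla2g1b, and 6 genes in no list, among them Bpifb1, Igha, Lgals2 and Ltf, which were named after their values were seen. Of the 17, 14 were also more than 2-fold above every other array on knockout 2. Igha, an immunoglobulin heavy chain gene, was not, with 4.92 on knockout 2 and 6.81 on wild type 3. Ltf, lactoferrin of neutrophils and secretions, was not either, with 6.15 on knockout 2 and 5.65 on wild type 3. Of the gland genes that missed the rule, Muc6 and Ghrl stepped down from knockout 2 to wild type 3 by 2.96 and 3.84, less than Gkn1 at 3.98. Muc5ac and Atp4b stepped down by 5.73 and 5.48, about as much as Atp4a at 5.80 and Pgc at 5.43, which met the rule. Muc6 and Ghrl had the lowest signals of the 10 on knockout 2, 8.40 and 10.31. The low margins of Muc6, Ghrl, Muc5ac and Atp4b on wild type 3 thus do not show that it lacked them.

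**Figure D2:**
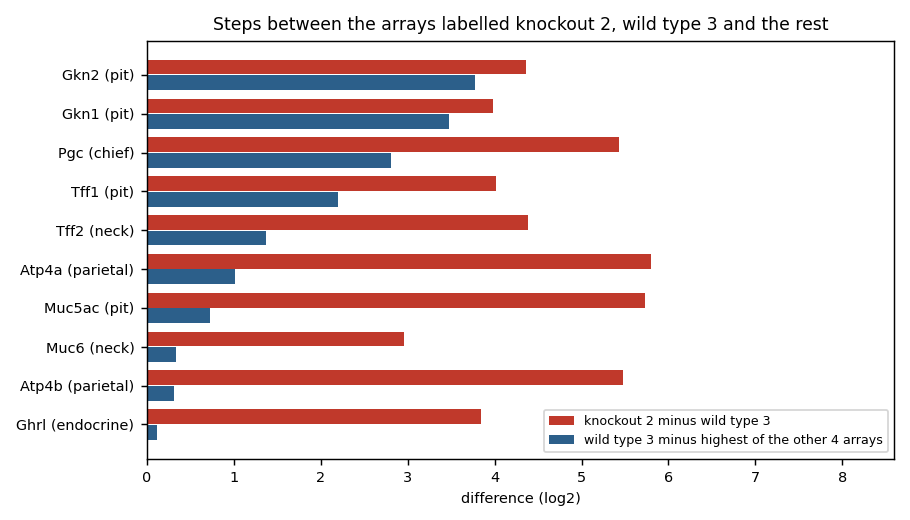
Log2 steps for each gene, ordered by the blue bars: the signal on the array labelled knockout 2 minus that on wild type 3 (red) and the signal on wild type 3 minus the highest of the other 4 arrays (blue). Red bars run from 2.96 for Muc6 to 5.80 for Atp4a, and blue bars from 0.12 for Ghrl to 3.77 for Gkn2.

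On the 4 arrays with low readings, small differences remained. Knockout 1 was the highest of these 4 for 7 of 10 genes, and knockout 1 was the highest of them for 31.5% of all genes. The count became 5 with quantile normalization and 6 with median centring. Wild type 2 was the lowest of all 6 arrays for 8 of 10 genes, and for 21.6% of all genes. These differences were 0.80 at most within a gene, smaller than each gene's step from knockout 2 to wild type 3. The margin of wild type 3 over these arrays was no clearer than that for Atp4b and Ghrl, at 0.31 and 0.12 against ranges of 0.80 and 0.51 among the 4 arrays, and for Muc6 both were 0.33.

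Several of the genes lie close to relatives on the chromosome, which allowed members of a family to be set side by side. On mouse chromosome 6 (GRCm38.p6), Gkn1 lies at chr6:87345653-87350915, Gkn2 at chr6:87373365-87379494 and Gkn3 at chr6:87383319-87388935. Gkn3, a gastrokine found in neck cells of the mouse stomach, gave 4.70, 7.01 and 4.62 on knockout 1 to 3, against 5.44, 4.62 and 6.14 on wild type 1 to 3, so it shared the leading arrays knockout 2 and wild type 3 with its neighbours, with a margin of 0.87 on knockout 2, under 2-fold, and had wild type 1 next. On chromosome 17, Tff3, Tff2 and Tff1 follow each other at chr17:31125306-31129611, chr17:31141062-31144282 and chr17:31161395-31165060. Tff3, the trefoil peptide of intestinal goblet cells, gave 6.11, 6.18 and 5.92 on knockout 1 to 3, against 6.07, 5.94 and 6.05 on wild type 1 to 3, and so stayed level while Tff2 and Tff1 peaked on knockout 2. On chromosome 7 the mucins run in the order Muc6 (chr7:141633459-141655393), Muc2 (chr7:141690340-141754691), Muc5ac (chr7:141788958-141819227) and Muc5b (chr7:141839059-141873089). Muc2, the intestinal mucin, gave 5.27, 5.11 and 4.92 on knockout 1 to 3, against 4.98, 4.99 and 5.28 on wild type 1 to 3. Muc5b, an airway mucin, lay between 4.87 on wild type 2 and 5.43 on knockout 2. Neither followed the gastric mucins Muc6 and Muc5ac. The build behind the array's design is not known here, and the positions are those of the RefSeq assembly.

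**Figure D3:**
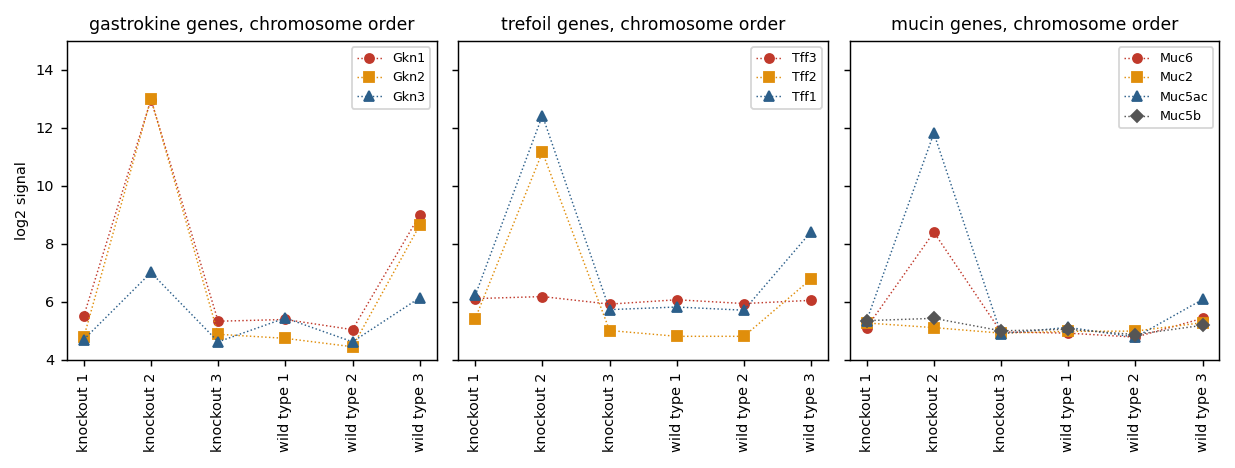
Log2 signal of neighbouring gastrokine, trefoil and mucin genes on the 6 arrays, in chromosome order within each legend; dotted lines only join the points of 1 gene. Gkn1, Gkn2, Tff1, Tff2, Muc5ac and Muc6 peak on the array labelled knockout 2, whereas Tff3, Muc2 and Muc5b stay between 4.87 and 6.18 on all arrays.

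Promoter sequence from RefSeq (GRCm38.p6) was examined because the 10 genes peaked together, and it was matched for 6 of them, Gkn1, Gkn2, Muc6, Pgc, Atp4a and Ghrl. Tff1, Tff2, Muc5ac and Atp4b were not matched. The 250 bases before the transcript start were searched for the GATA-type letters AGATAA and TGATAA on both strands and for the TATA-type letters TATAAA and TATATAA on the gene's strand, with the letters chosen after the sequences had been read. The matches of the 2 kinds did not overlap in these promoters. The 4 below, given 5′ to 3′ on the gene's strand with the matches in capitals, are shown because they hold matches and stand for pit, neck and chief cells: Gkn1 at chr6:87350916-87351165 on the minus strand, Gkn2 at chr6:87373115-87373364 on the plus strand, Muc6 at chr7:141655394-141655643 on the minus strand and Pgc at chr17:47726592-47726841 on the plus strand.
Gkn1: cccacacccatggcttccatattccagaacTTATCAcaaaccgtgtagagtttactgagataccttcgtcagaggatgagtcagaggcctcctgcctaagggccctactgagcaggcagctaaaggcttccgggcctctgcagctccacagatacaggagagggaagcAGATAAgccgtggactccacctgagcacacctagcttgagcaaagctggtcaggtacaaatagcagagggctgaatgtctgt
Gkn2: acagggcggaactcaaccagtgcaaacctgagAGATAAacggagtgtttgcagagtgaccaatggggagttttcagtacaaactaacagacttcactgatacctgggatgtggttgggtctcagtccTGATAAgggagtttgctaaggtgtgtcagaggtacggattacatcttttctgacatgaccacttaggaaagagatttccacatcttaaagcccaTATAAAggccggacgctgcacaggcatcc
Muc6: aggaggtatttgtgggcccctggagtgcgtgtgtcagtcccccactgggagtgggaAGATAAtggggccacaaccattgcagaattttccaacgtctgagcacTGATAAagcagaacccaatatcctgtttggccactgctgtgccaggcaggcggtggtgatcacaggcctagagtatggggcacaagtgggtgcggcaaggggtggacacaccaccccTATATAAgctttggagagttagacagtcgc
Pgc: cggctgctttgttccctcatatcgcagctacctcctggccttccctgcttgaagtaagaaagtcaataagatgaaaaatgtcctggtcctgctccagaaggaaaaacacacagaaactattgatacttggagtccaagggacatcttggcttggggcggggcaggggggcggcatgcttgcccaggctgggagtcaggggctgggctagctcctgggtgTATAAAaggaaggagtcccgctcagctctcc

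Gkn1, Gkn2 and Muc6 each held 2 GATA-type matches in this window. Of 32851 RefSeq promoters of the same length, 16.6% held at least 1 such match and 2.72% at least 2. Gkn2, Muc6 and Pgc held a TATA-type match, which 8.70% of all promoters held. The window of Atp4a and those of the 4 annotated starts of Ghrl held neither set of letters. Counted per promoter, as in these shares, 3 of the 9 promoters of the 6 genes held a GATA-type match and 3 a TATA-type match. Since the letters were chosen after these sequences had been read, the shares are no test of the genes, and nothing is read from them. A match describes letters only and does not show that a factor binds there.

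Other genes of the gastric gland, taken from lists of each cell type, were then examined on the same arrays. Of 47 such genes, 26 (55.3%) were more than 2-fold above every other array on knockout 2, against 1.26% of all genes, and their median margin was 1.63, against -0.28 over all genes. A stomach gene list had been described on this array before, so the direction of these counts is not independent evidence.

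Of the pit cell genes, 10 of 12 were past 2-fold on knockout 2. The lists differ in make-up, so their shares do not rank the cell types. Ctse, the aspartic protease cathepsin E, gave 11.75 on knockout 2, 6.83 on wild type 3 and 4.94 to 5.07 on the other 4 arrays. Anxa10, an annexin of gastric epithelium, gave 11.45 on knockout 2, 6.45 on wild type 3 and 3.71 to 4.04 elsewhere. Vsig1, a junction protein of glandular stomach, gave 9.77 on knockout 2, 3.82 on wild type 3 and 3.05 to 3.28 elsewhere. These 3 genes separated knockout 2 from all other arrays, and Ctse and Anxa10 also separated wild type 3. Cldn18, a claudin of stomach and lung, was high on knockout 2 with 10.51 and also on knockout 1 with 8.02, the array with lung genes, against at most 6.40 on the rest. Fut2, a fucosyltransferase, and Foxq1, a transcription factor of pit cells, were under 2-fold, with margins of 0.60 and 0.98.

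Parietal cell genes passed 2-fold on knockout 2 in 10 of 16 cases. Clic6, a chloride channel family member, gave 10.90 on knockout 2 and 4.57 to 5.07 on the other 5 arrays, and Slc9a4, a sodium-proton exchanger of these cells, gave 9.39 and 5.04 to 5.55. Car2, the carbonic anhydrase that supplies protons, gave 11.24 on knockout 2, and its next highest signal, 6.86, was on wild type 1. The potassium channel gene Kcnj15 had a margin of 3.12 and the anion transporter gene Slc26a7 one of 2.60. The histamine receptor Hrh2 and the gastrin receptor Cckbr, which relay signals for acid secretion, had margins of 0.31 and -0.06, and the water channel Aqp4 had one of -0.66. None of the 16 genes was more than 2-fold above the 4 low arrays on wild type 3, a rule that 0.0853% of all genes met. The largest margin of the 16 on knockout 2 was 5.83, for Clic6. From knockout 2 to wild type 3, Atp4a and Atp4b stepped down by 5.80 and 5.48, about as much. The count therefore does not show that wild type 3 lacked parietal cell genes.

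Chief cell genes passed in 3 of 5 cases. Chia1, the acidic chitinase of mouse chief cells, gave 11.47 on knockout 2 and 4.62 to 5.34 on the other 5 arrays, the largest margin of the gastric lists at 6.13. Cblif, gastric intrinsic factor, gave 10.58 on knockout 2, 5.70 on wild type 3 and 4.01 to 4.83 elsewhere, and Pga5, another pepsinogen, had a margin of 1.63. Bhlha15, a transcription factor of secretory cells, had a margin of 0.97. Lipf, gastric lipase, did not follow, with 3.22 on knockout 2 and 3.03 to 3.57 on the other 5 arrays.

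Endocrine genes passed in 2 of 12 cases. Sst, somatostatin of D cells, gave 9.39 on knockout 2 and 5.71 to 6.21 on the other 5 arrays. Chga, a granin of endocrine granules, gave 8.97 on knockout 2 and 5.55 to 6.39 on the other 5. Gast, the antral hormone gastrin, gave 5.80 on knockout 2 and 5.26 to 6.05 on the others, so the gastrin probe set did not mark knockout 2. Hdc, the histamine-forming enzyme, had a margin of 0.75, and Mboat4, which acylates ghrelin, had one of 0.02. Of the neck genes, A4gnt, which modifies the gland mucin, had a margin of 2.07.

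**Figure D4:**
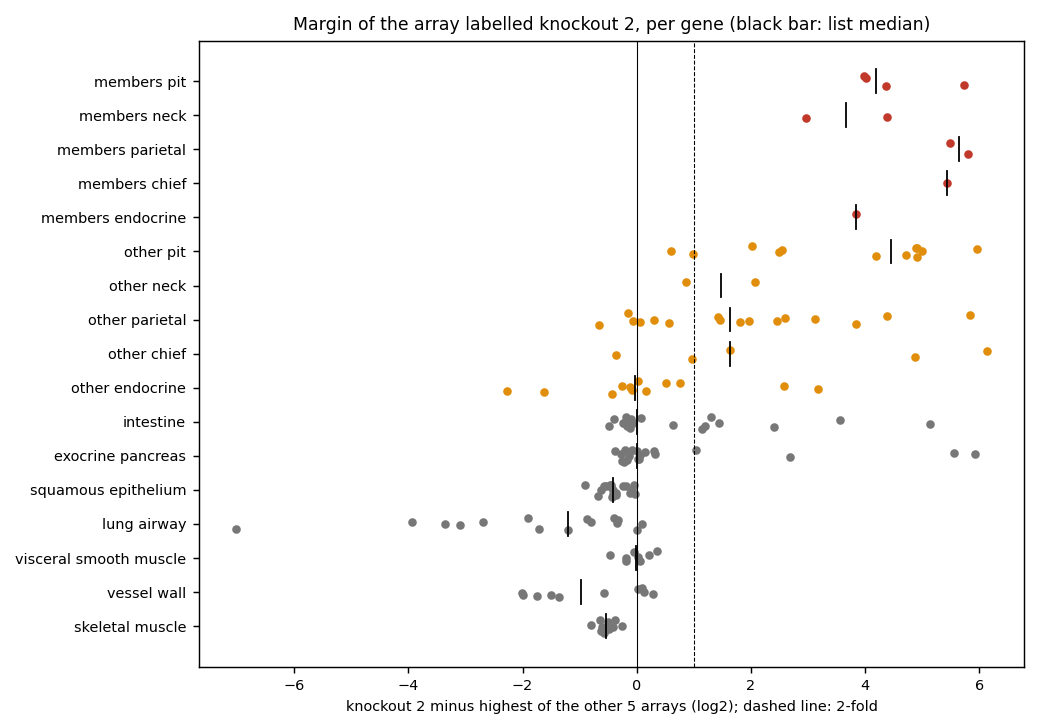
Signal on the array labelled knockout 2 minus the highest of the other 5 arrays (log2), with 1 point per gene, black bars for list medians and a dashed line at 2-fold; the 10 gastric gland genes are red, other gastric genes orange and lists of other tissues grey. The 10 genes lie between 2.96 and 5.80, and squamous, lung, vessel wall, smooth muscle and skeletal muscle genes do not exceed 0.36.

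Genes listed for other organs were examined on the same array. A place on such a list does not show where a signal came from, and its origin was not tested. Lypd8, Clps and Pla2g1b were among the profiles nearest to the gland genes, given below. Of 18 intestinal genes, 7 were more than 2-fold above every other array on knockout 2, led by Lypd8 with a margin of 5.14, the keratin Krt20 with 3.55 and the galectin Lgals4 with 2.40, whereas the intestinal transcription factors Cdx1 and Cdx2 had margins of -0.11 and -0.18. Of 20 exocrine pancreas genes, 4 passed. Clps, colipase, gave 13.10 on knockout 2, 7.17 on wild type 3 and 5.89 to 6.32 elsewhere, while Pla2g1b, a secreted phospholipase, gave 13.29 on knockout 2, 7.73 on wild type 3 and 5.26 to 5.51 elsewhere. Pnliprp2 and Pnliprp1, lipase-related proteins, were the others, with margins of 2.68 and 1.03. The other 16 genes of the list did not exceed the other arrays by 2-fold, with Cpa1 at 4.86 on knockout 2 and 4.57 to 5.13 on the other 5 arrays, and Prss2 and Ptf1a at margins of -0.14 and -0.20. Try10, a trypsin family gene in no list and named after its values were seen, did, with 8.41 on knockout 2 and 3.71 to 4.08 on the other 5 arrays. The squamous epithelium list had 0 of 19 genes past 2-fold on knockout 2, with a median of 10.79 there and 10.94 on wild type 3, and the visceral smooth muscle list 0 of 8, with medians of 9.40 and 9.45. The part of these tissues in the gland gene signals was not tested.

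Outside the 10, 12 genes had the array profile most like theirs, measured as the lowest root mean square distance over the 6 arrays from the median profile, each gene centred on its own mean. They were Lgals2 and Ctse (0.16 each), Cblif (0.19), Clps (0.27), Psca (0.36), Lypd8 (0.38), Vsig1 (0.40), Sult1c2 (0.42), Anxa10 (0.46), Pdia2 (0.47), Pla2g1b (0.49) and Mucl3 (0.50). Of the 10 genes themselves, Atp4a, Tff2 and Muc5ac lay within 0.24 of the median profile, and Muc6 was farthest at 1.20. The likeness rests on 6 points of which knockout 2 dominates.

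The genotypes were compared last. All 10 genes had a higher mean in the knockout group than in the wild-type group, by 1.11 for Muc6 to 2.12 for Atp4a on the log2 scale, with a median of 1.66, but the groups overlapped for 10 of 10. Over all 19938 genes, 9927 had a higher mean in the knockout group, and the share that overlapped was not computed. Since the genes were picked with their signal on knockout 2 known, nothing is read from these counts. Gkn1 averaged 7.94 ± 4.36 in the knockout group and 6.48 ± 2.19 in the wild-type group (SD, n = 3 each). Atp4a averaged 7.75 ± 4.06 in the knockout group and 5.63 ± 0.88 in the wild-type group (SD, n = 3 each). Pgc averaged 7.55 ± 4.88 in the knockout group and 5.64 ± 1.83 in the wild-type group (SD, n = 3 each). The standard deviation within the knockout group, 1.94 to 4.88, was larger than the group difference for each of the 10.

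Single arrays set the direction of this difference. Without knockout 2 the median difference was -0.33, 9 of the 10 genes were lower in the knockout group, and Ghrl was at 0.17. Over all 19938 genes, 10312 were higher in the knockout group in this setting. Gkn2 and Gkn1 were then at -1.12 and -1.05, with wild type 3 still included. Without wild type 3 the median was 2.40, and without both it was 0.21, with 9 of 10 genes higher, up to 0.40 for Tff2, and Atp4b at -0.17. The share of all genes that were higher without both arrays was not computed. Leaving out knockout 1 or knockout 3 gave medians of 2.67 and 2.85.

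**Figure D5:**
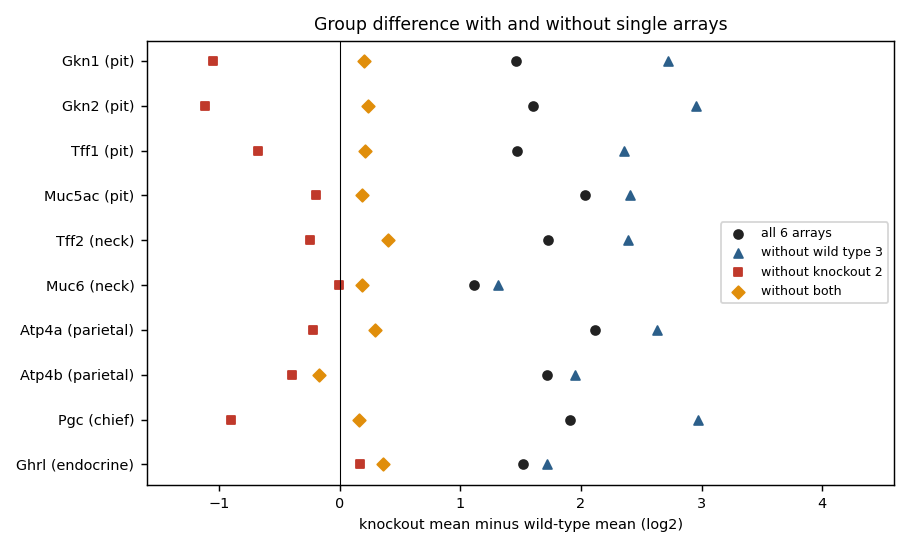
Knockout mean minus wild-type mean (log2) for each gene over all 6 arrays (black circles), without wild type 3 (blue triangles), without knockout 2 (red squares) and without both (orange diamonds). All black circles lie between 1.11 and 2.12, and 9 of 10 red squares lie below 0.

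In limma over all probe sets tested, 0 of 13073 passed at an adjusted p under 0.05 (0% called), and 83 had an unadjusted p under 0.05, or 80 without the intensity trend. Both counts are below the share of 0.05 expected if no gene differed. The 0 called therefore does not show that the genotypes were alike. Of the 10 gland genes, 9 passed the filter on low signal and 0 were called. Muc6 fell below the filter. For a gene that is high on 1 array, passing the filter can itself depend on that array, and since the genes were chosen by these values, nothing is read from their count. Of the 47 other gastric genes, 22 were tested and 0 were called.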

How the data were processed

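Log2 values of 35399 probe sets on 6 arrays were used as the authors deposited them, with no pseudocount or rescaling. The log2 scale was read from their range, 1.55 to 13.96. The submitters' processing notes name MAS5, without version or role, and the sources used here give no background correction, summary or scaling step. Small differences between dim signals may depend on those steps. Array medians over annotated probe sets were 6.34 to 6.47.

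Genes were named from the platform annotation, which gives 1 symbol to 21789 probe sets and several to 1621, none of which were used. The probe set of highest mean stood for a gene. Groups and array numbers came from the sample titles. Nothing in the labels says that samples of a group came from separate animals, so the spread behind a p-value may be technical.

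The genotypes were compared with limma 3.58.1 under R 4.3.3, using an intensity trend, the lowest 40% by mean left out, and Benjamini-Hochberg adjustment. The fit was tested on simulated data. The same-numbered arrays did not deviate together (r = 0.0922, -0.245 and 0.212), so no block was used. Alternatives were quantile normalization, median centring, 64 added on the linear scale, other filters, no trend, a replicate block and leaving out arrays.

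The 10 genes and all lists were chosen with earlier results of these data known. Named genes were the 10, their family neighbours, the 12 nearest profiles and, per list, up to 5 genes of largest and 3 of lowest margin or of defining role.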

Additional observations from a re-analysis of the deposited data

How the results depend on the processing

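The median margin of knockout 2 over the next array, 4.37, was 4.35 with quantile normalization or median centring and 3.98 with 64 added on the linear scale, where Muc6 moved most in proportion, to a margin of 1.90 and a knockout minus wild type difference of 0.67. It was 4.37 to 6.33 on leaving out 1 array other than knockout 2, the larger value without wild type 3. The median knockout minus wild type difference, 1.66, was 1.65, 1.63 and 1.39 under the same 3 scalings, which kept all 10 genes above 0, and -0.33 to 2.85 on leaving out 1 array. It was 0.21 without knockout 2 and wild type 3 and 0.35 without wild type 1 as well, both chosen after seeing the data. Averaging all probe sets of a gene changed nothing, since each gene has 1. With a replicate block the median difference was 1.66 and 0 probe sets were called, and 0 were also called in every other run of limma, among them runs without knockout 2 and either wild type 3 or wild type 1. The count of genes highest on knockout 1 among the 4 low arrays, 7, was 7 with 64 added. With 3 arrays a group and no detection calls, differences among the low signals cannot be set apart from background.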

Other observations

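Genes outside the lists also peaked on the array labelled knockout 2, and those given here were named after their values were seen. The keratins of simple epithelium Krt8, Krt18 and Krt19 gave 11.82, 10.09 and 11.59 there, with margins of 3.86, 3.68 and 3.77 over the next array. On wild type 3 the same keratins gave 7.96, 6.35 and 7.45, none above all of the other 4 arrays by more than 0.08. Muc1, a membrane mucin, had a margin of 4.50, the potassium channel gene Kcnj16 one of 4.84 and the apolipoprotein gene Apoa1 one of 5.42. The general epithelial genes Cdh1 and Epcam, which squamous epithelium also expresses, had margins of 0.87 and 0.44.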
